A study of Komagataella pastoris with 12 samples.

Results

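G14_37 denotes the 3 RNA-seq libraries of G14, a thermotolerant strain of the methylotrophic yeast *Komagataella phaffii*, grown at 37 °C. They were 3 of the 12 libraries of the series, taken by their labels, and all 5080 transcripts of the deposited table were used. The question addressed here was which functions differed between the 3 cultures of this one group, and whether the same genes differed as much between the 3 cultures of Parent_30, Parent_37 and G14_30. Parent_30 and Parent_37 were the parent at 30 °C and 37 °C, a recombinant GS115 strain expressing a lipase, and G14_30 was G14 at 30 °C. G14 was obtained from this parent by plasma mutagenesis followed by stepwise adaptive evolution at high temperature. Each strain was represented by a single line, so the spread described here is that between cultures of 1 isolate, not between isolates. All 12 cultures were grown in YPD, a rich medium with glucose, and were sampled in logarithmic phase, with 3 biological replicates per group.

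Yeasts grown on glucose break it down through glycolysis and keep the genes for other carbon sources at a low level. This glucose repression covers peroxisomal fatty acid beta-oxidation, the glyoxylate cycle, gluconeogenesis and, in *K. phaffii*, the methanol pathway, which uses alcohol oxidase and catalase inside peroxisomes. Peroxins are the proteins that build peroxisomes and import their enzymes. Growing yeast cells, by contrast, carry much mRNA for ribosomal proteins, and dividing cells make histone mRNA in S phase.

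The spread of a transcript within a group was its range, the highest minus the lowest of the 3 values of log2(FPKM + 1), where FPKM is the number of fragments scaled for transcript length and library depth. A range of 1 is close to a 2-fold difference between the highest and the lowest culture for all but the scarcest transcripts. The libraries held 13428637 to 22047040 fragments on genes. The G14_37 libraries were not the shallowest, with 15377476, 18183978 and 15448121 fragments for replicates 1, 2 and 3. The 50 most abundant transcripts took 16.3%, 24.6% and 21.1% of all FPKM in these 3 libraries, against 23.9% to 32.7% in the other 9, so replicate 1 had the lowest such share of the series. The part of this difference in the results below was not tested.

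The 3 cultures of G14_37 differed from each other more than those of any other group. The median range over all transcripts was 0.48 in G14_37, which corresponds to a 1.40-fold difference between the highest and the lowest culture, against 0.17 in Parent_30, 0.25 in Parent_37 and 0.20 in G14_30. In G14_37, 835 transcripts had a range over 1, or 16.4% of those measured, against 45 (0.886%) in Parent_30, 48 (0.945%) in Parent_37 and 109 (2.15%) in G14_30. A range over 2 was found for 184 transcripts in G14_37 (3.62%), for 0 in Parent_30, for 3 in Parent_37 and for 20 in G14_30. A range over 4 was found for 31 transcripts in G14_37 and for 0 in each other group. G14_37 had the largest range of the 4 groups for 3346 transcripts, 65.9% of all.

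**Figure D1:**
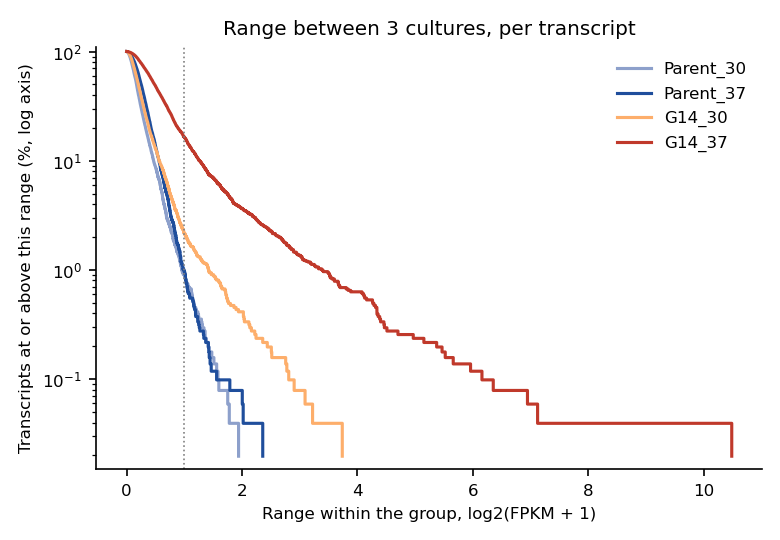
Share of the 5080 transcripts (vertical axis, percent, log scale) whose range within a group was at or above the value on the horizontal axis (log2 units of FPKM + 1), with 1 line per group. The G14_37 line lies to the right of the other 3, with 16.4% of transcripts over a range of 1 against 0.886% to 2.15%.

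A model of the deviations of each library from its group mean, fitted to all transcripts with limma and adjusted by the Benjamini-Hochberg method, called 1600 transcripts more variable in G14_37 than in the mean of the other 3 groups (31.5%) and 3 less variable (0.0591%). Of the 835 transcripts with a range over 1, 656 were among the 1600. This count was not stable, since deviations from the group median, a replicate block, or any 1 comparison group on its own left 0 adjusted calls. The account below therefore rests on the ranges and on the values of the single libraries, and limma calls are given only as counts per function and for the least variable genes.

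Replicate 1 stood apart from the other 2 cultures. The median absolute log2 difference was 0.34 between replicates 1 and 2, 0.34 between replicates 1 and 3 and 0.20 between replicates 2 and 3, against 0.08 to 0.18 for the 9 pairs of the other groups. The pair of replicates 2 and 3 was thus also more distant than any pair elsewhere. Differences over 1 were counted in 528, 627 and 198 transcripts for these 3 pairs and in 2 to 92 for the others. Among the 835 transcripts, the culture farthest from the other 2 was replicate 1 in 577 cases (69.1%), replicate 2 in 121 and replicate 3 in 137.

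Replicate 1 lay above the other 2 for 379 of these 577 transcripts (7.46% of all transcripts) and below them for 198 (3.9%). It also lay outside the whole series for many genes. Replicate 1 was higher than each of the other 11 libraries by more than 1 log2 unit for 126 transcripts (2.48%) and lower than each of them for 24 (0.472%). The same count was 2 and 2 for replicate 2 and 1 and 2 for replicate 3, and no library of the other groups exceeded 8. Between the remaining cultures, replicate 2 was above replicate 3 by more than 1 for 153 transcripts (3.01%) and replicate 3 above replicate 2 for 45 (0.886%). Scaling each library to the same sum of FPKM instead moved the median difference of replicate 1 from the other 2 by 0.09 and that of replicate 2 minus replicate 3 by -0.16, and the counts of transcripts with replicate 1 above and below became 437 and 158. The functions are given below first for the pattern that set replicate 1 apart and then for the one that set replicates 2 and 3 apart.

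Functions were assigned by the description that the table attaches to a gene, present for 3082 transcripts. They were grouped into 37 lists that hold 1256 transcripts. The median range of a list was larger in G14_37 than in each other group for 34 of the 37 lists, and was over 1 for 8 of them. These 8 were gluconeogenesis (only 3 members), histones, fatty acid beta-oxidation and carnitine, glycolysis, methanol utilisation, peroxins, fermentation with C2 metabolism, and sugar and organic acid transporters. The 3 lists that were not more variable than in every other group were ribosome biogenesis (0.47 against 0.55 in G14_30), RNA polymerase I and III (0.34 against 0.38 in Parent_30) and translation factors (0.28 against 0.37 in Parent_37). In 27 lists both pairs that held replicate 1 were farther apart at the median than any pair of another group, and in 15 lists the pair of replicates 2 and 3 was. Over all 5080 transcripts, replicate 1 was the highest of the 3 G14_37 cultures for 2103 and the lowest for 1932. It was above the mean of the other 2 for 2642. Counts of this kind per list are to be read against these.

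In the limma test of spread, with Benjamini-Hochberg adjustment over all transcripts, the share of members called more variable in G14_37 is to be read against the 31.5% of all transcripts, and each of these calls was lost under the alternatives that left 0. The share was 16 of 19 for beta-oxidation and carnitine, 16 of 18 for peroxins, 5 of 6 for methanol utilisation, 5 of 5 for histones, 25 of 36 for the proteasome and 21 of 29 for the respiratory chain. It was 12 of 21 for the tricarboxylic acid and glyoxylate cycle, 8 of 14 for glycolysis, 23 of 42 for nitrogen and amino acid uptake and 19 of 44 for DNA replication. For chaperones, with 18 of 49, it was close to that of all transcripts, and for cytosolic ribosomal proteins, with 7 of 84, it was below it.

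**Figure D2:**
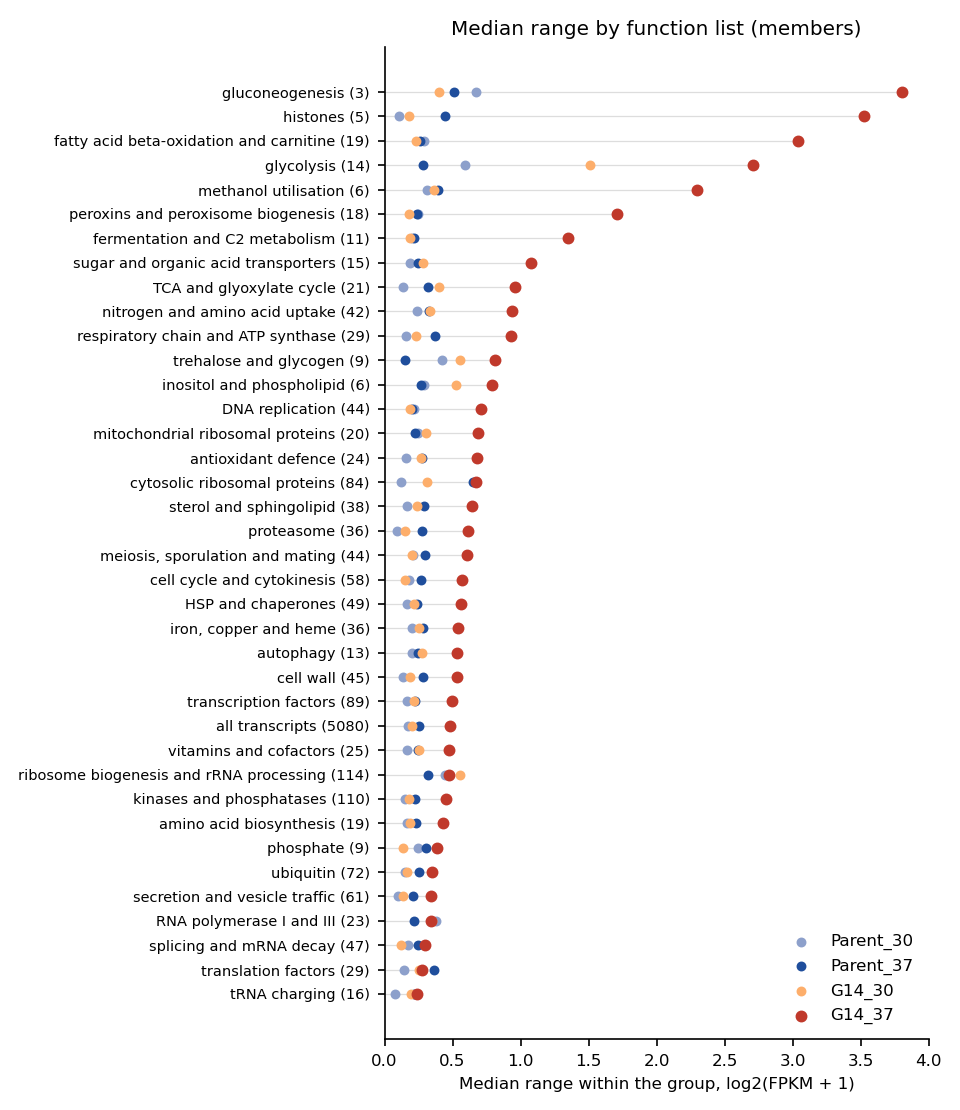
Median range within each group (horizontal axis, log2 units of FPKM + 1) for the 37 function lists and for all transcripts, with 1 marker per group. The G14_37 marker is the rightmost for 34 lists, from 0.24 for tRNA charging to 3.80 for gluconeogenesis, a list of only 3 members.

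Fatty acid beta-oxidation and carnitine transfer gave the clearest case of replicate 1 standing above the other cultures. Of the 19 members, 14 had a range over 1 and in all 14 the culture apart was replicate 1, above the other 2. The median range was 3.04, against 0.29, 0.26 and 0.23 in Parent_30, Parent_37 and G14_30, where no member exceeded 1.

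The gene of the list with the largest range encoded 3-ketoacyl-CoA thiolase (PAS_chr2-2_0267), the last enzyme of the beta-oxidation spiral. Its level was 2174, 46.4 and 51.3 FPKM in replicates 1, 2 and 3 of G14_37 and 30.2 to 55.5 FPKM in the other 9 libraries. Replicate 1 was 44.5-fold above the mean of the other 2 cultures, which lay inside the span of the other groups. The gene lies on chromosome 2 of the deposited annotation, from 1892215 to 1893483 on the plus strand. Fatty-acyl coenzyme A oxidase (PAS_chr1-4_0538, chromosome 1, 2393694 to 2395805, plus strand), the first and hydrogen peroxide producing enzyme of the pathway, was at 1280, 28.0 and 29.7 FPKM, against 16.8 to 43 elsewhere. The multifunctional enzyme of the middle steps (PAS_chr2-1_0776) was at 838, 89.1 and 82.9 FPKM, against 63.2 to 87.2. Each of these 3 enzymes was thus high in a single culture of the 12.

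The enzymes that move acetyl units showed the same order. Carnitine acetyl-CoA transferase (PAS_chr3_0069) was at 985, 47.1 and 69.6 FPKM and carnitine acetyltransferase (PAS_chr3_0761) at 198, 24.6 and 23.1 FPKM. A subunit of the peroxisomal ATP-binding cassette transporter (PAS_chr2-2_0272), of the family that carries long fatty acids into peroxisomes in baker's yeast, was at 204, 25.6 and 34.9 FPKM. Peroxisomal 2,4-dienoyl-CoA reductase (PAS_chr3_0975), which handles unsaturated chains, was at 944, 201 and 81.7 FPKM, so that here replicates 2 and 3 also differed from each other. Replicates 2 and 3 otherwise lay close, with a median absolute difference of 0.29 over the 19 members. Without replicate 1, this list is left with that difference, against 0.20 for the most distant pair of any other group.

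Peroxin genes followed. Of the 18 members, 14 had a range over 1, all with replicate 1 above, and replicate 1 was the highest of the 3 cultures for 18 of 18. The median range was 1.71, against 0.24, 0.24 and 0.18 in the other groups, and the median difference between replicates 2 and 3 was 0.17, within the 0.21 reached elsewhere. The receptor for the C-terminal tripeptide import signal (PAS_chr2-2_0186), which carries matrix enzymes into the peroxisome, was at 387, 37.7 and 39.8 FPKM, against 25.8 to 83.5 in the other 9 libraries. The peroxin of the import docking machinery (PAS_chr4_0794) was at 195, 63.5 and 75.8 FPKM, and a RING-finger peroxin (PAS_chr4_0759) at 103, 37.2 and 28.0 FPKM. Replicate 1 was the highest of the 3 cultures for each of them.

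Catalase A (PAS_chr2-2_0131, chromosome 2, 2139070 to 2140602, minus strand), which breaks down hydrogen peroxide in the peroxisome, was at 1960, 264 and 297 FPKM in G14_37. Replicate 1 was 6.99-fold above the mean of the other 2. The level in the other 9 libraries was 60.7 to 339 FPKM, so replicates 2 and 3 were within their span and replicate 1 was not.

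The methanol pathway had 6 members, all with a range over 1, and replicate 1 was the culture apart, above the others, for 5. In Parent_30, Parent_37 and G14_30, 1, 0 and 2 members exceeded 1. The sixth member, a bifunctional alcohol dehydrogenase and glutathione-dependent formaldehyde dehydrogenase (PAS_chr2-1_0313), was highest in replicate 2, at 1184, 2772 and 586 FPKM, and its range of 2.24 was below the 3.22 of G14_30. NAD+-dependent formate dehydrogenase (PAS_chr3_0932, chromosome 3, 1821897 to 1822994, plus strand), which oxidises formate to carbon dioxide at the end of methanol dissimilation, had the largest range of the whole table at 10.48. Its level was 5416, 5.52 and 2.79 FPKM in replicates 1, 2 and 3, from 108450, 120 and 60 fragments. It was at 3.86 to 9.03 FPKM in G14_30, and the parent had 41.3 to 56.8 FPKM at 30 °C and 68.7 to 117 FPKM at 37 °C. Replicates 2 and 3 were therefore near the level of G14_30 and replicate 1 was above every library. S-(hydroxymethyl)glutathione dehydrogenase (PAS_chr3_1028), an enzyme of an earlier step of this dissimilation, was at 1845, 453 and 358 FPKM. Alcohol oxidase (PAS_chr4_0821, chromosome 4, 1547751 to 1549742, minus strand), the first enzyme of the pathway, was at 111, 14.5 and 16.6 FPKM, against 5.98 to 27.2 elsewhere. Replicate 1 was 7.15-fold above the mean of the other 2 cultures. Its highest value was far below that of formate dehydrogenase on the same per-length scale. Replicates 2 and 3 differed by a median of 0.48 over the 6 members, against 0.37 for the most distant pair of another group.

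Gluconeogenesis and the glyoxylate cycle make sugars from C2 and C3 compounds. Phosphoenolpyruvate carboxykinase (PAS_FragB_0061) was at 1719, 40.7 and 23.1 FPKM, against 15.2 to 155 elsewhere, and replicate 1 was 53.9-fold above the mean of the other 2. Fructose-1,6-bisphosphatase (PAS_chr3_0868) was at 999, 91.4 and 70.6 FPKM, a 12.3-fold difference. These enzymes bypass the irreversible steps of glycolysis. The gluconeogenesis list held only 3 members, of which these 2 had a range over 1, and the remaining member had a range of 0.35. The list median of 3.80 was thus the range of fructose-1,6-bisphosphatase alone. Replicates 2 and 3 differed by a median of 0.37 over the 3 members of the gluconeogenesis list, against 0.59 for the most distant pair elsewhere. Isocitrate lyase (PAS_chr1-4_0338) was at 635, 23.5 and 25.2 FPKM, against 8.99 to 55.1 elsewhere, and malate synthase (PAS_chr4_0191) at 643, 28.3 and 44.4 FPKM, against 20.2 to 130. Both enzymes of the glyoxylate bypass were thus high in replicate 1 alone.

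The tricarboxylic acid and glyoxylate list had 10 of 21 members with a range over 1, and in all 10 replicate 1 was above. Its median range was 0.96, against 0.14 to 0.40, and the median difference of replicates 2 and 3 was 0.20, which did not exceed the 0.37 found between other cultures. Mitochondrial malate dehydrogenase (PAS_chr4_0815) was at 1362, 209 and 314 FPKM. The flavoprotein (PAS_chr4_0733) and iron-sulfur (PAS_chr3_1111) subunits of succinate dehydrogenase, shared by the cycle and the respiratory chain, were at 1389, 327 and 307 FPKM and at 1446, 388 and 352 FPKM. The respiratory chain and ATP synthase list had a median range of 0.93, with 12 of 29 members over 1 and replicate 1 highest for 26 of 29, and its replicates 2 and 3 differed by a median of 0.22 against 0.37 elsewhere. The lists of the cycle and of respiration thus showed the order of the peroxisomal lists with a smaller span.

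Transporters and enzymes for other carbon sources stood out in the same culture. The lactate transporter (PAS_chr3_0440) was at 709, 22.2 and 19.0 FPKM, against 5.28 to 46.1 elsewhere. A myo-inositol transporter (PAS_chr4_0828) was at 609, 28.2 and 46.4 FPKM, against 17.6 to 37.4. Mitochondrial aldehyde dehydrogenase (PAS_chr3_0987), which turns acetaldehyde into acetate, was at 778, 40.8 and 37.6 FPKM. An intracellular glucoamylase of glycogen breakdown (PAS_chr4_0579) was at 247, 20.7 and 28.9 FPKM. Among regulators, a zinc cluster transcriptional activator (PAS_chr4_0540) was at 47.7, 6.14 and 7.30 FPKM and a mitochondrial protein kinase (PAS_chr4_0756) at 127, 19.1 and 22.6 FPKM. In each of these 6 genes replicate 1 was far above both other cultures.

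**Figure D3:**
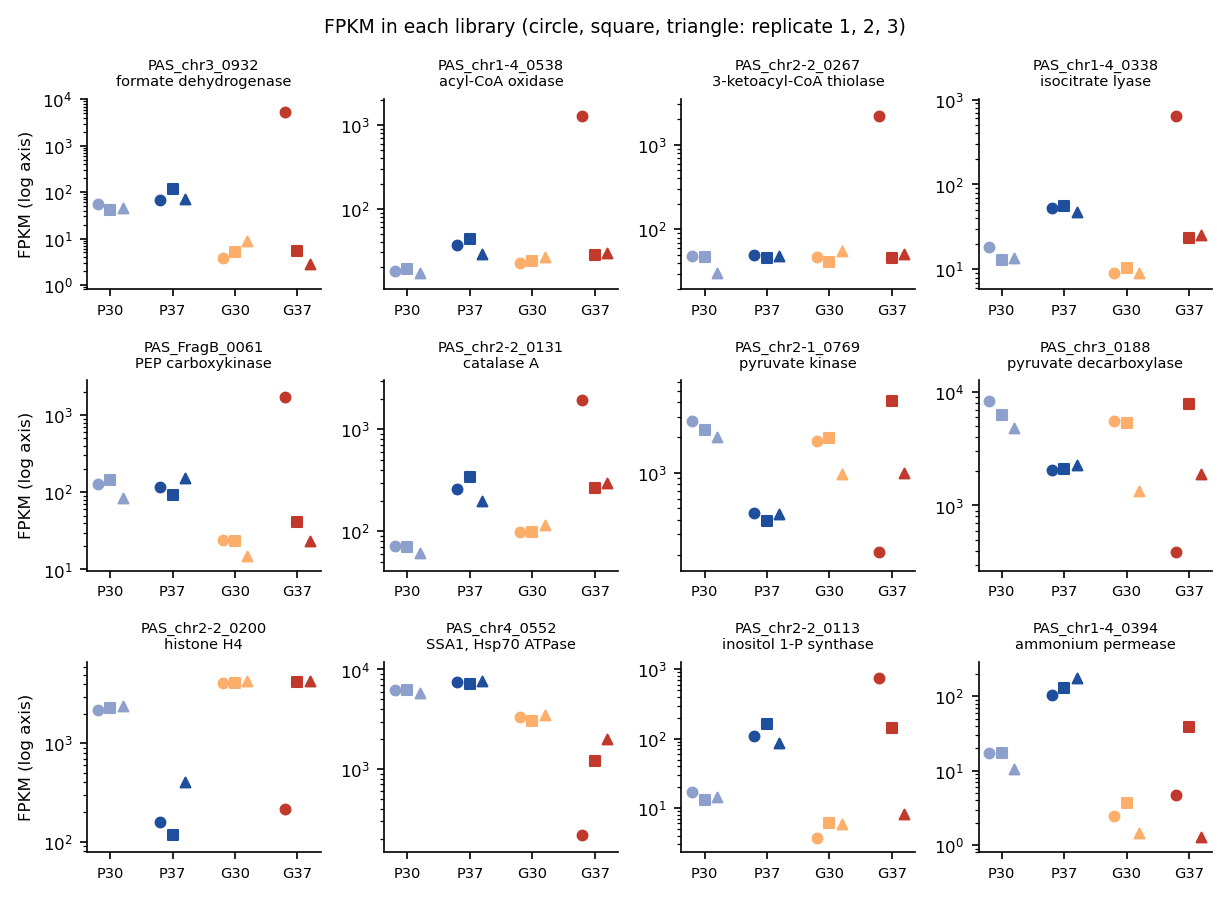
FPKM (vertical axis, log scale) of 12 genes in the 12 libraries, with 1 panel per gene and the groups along the horizontal axis, labelled P30 and P37 for the parent and G30 and G37 for G14. Circles, squares and triangles are replicates 1, 2 and 3, and for formate dehydrogenase the G14_37 symbols lie at 5416, 5.52 and 2.79 FPKM.

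Histones gave the opposite order. All 5 members had a range over 1 with replicate 1 below the other 2, and the median range was 3.53, against 0.11, 0.44 and 0.18 in Parent_30, Parent_37 and G14_30. Replicates 2 and 3 differed by a median of 0.13, less than the 0.44 found between other cultures. Histone H4 (PAS_chr2-2_0200) was at 215, 4258 and 4300 FPKM and histone H3 (PAS_chr2-2_0199) at 240, 4704 and 4108 FPKM. H2A (PAS_chr2-1_0429) was at 445, 4686 and 5132 FPKM and H2B (PAS_chr2-1_0428) at 575, 4032 and 4021 FPKM. These 4 core histones were 7.01-fold (H2B) to 19.9-fold (H4) lower in replicate 1 than in the mean of the other 2. Linker histone H1 (PAS_chr1-4_0282) was at 172, 424 and 617 FPKM. The table describes each core histone as one of a pair of identical or nearly identical copies, although the 5 members of the list include no second copy. Whether reads were shared with another copy was not tested, so the values of the single genes are uncertain.

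The core histones lie as divergent neighbours in the deposited annotation. H4 (PAS_chr2-2_0200) spans 2012923 to 2013234 on the minus strand of chromosome 2 and H3 (PAS_chr2-2_0199) 2013600 to 2014013 on the plus strand. H2B (PAS_chr2-1_0428) spans 786382 to 786780 on the minus strand and H2A (PAS_chr2-1_0429) 787331 to 787723 on the plus strand of the same chromosome. H3 and H4 also varied in Parent_37, with ranges of 2.02 and 1.79, where H4 was at 116 to 404 FPKM. For H4 the value of replicate 1 thus lay inside the Parent_37 span, whereas replicates 2 and 3 were near the top of the series, which was 4355 FPKM. For H3 replicate 1, at 240 FPKM, also lay inside the Parent_37 span of 94.1 to 385 FPKM. For H2A and H2B it did not, with 445 and 575 FPKM against at least 1961 and 726 FPKM in the other 9 libraries.

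DNA replication genes had the order of the histones in part. Of the 44 members, 13 had a range over 1 and replicate 1 was the culture apart below for 10 and above for 2, while replicates 2 and 3 differed by a median of 0.29, against 0.21 for the most distant pair elsewhere. The small subunit of ribonucleotide reductase (PAS_chr4_0197), which makes the precursors of DNA, was at 101, 640 and 431 FPKM, against 179 to 650 elsewhere. A large subunit (PAS_chr1-1_0282) was at 52.9, 152 and 171 FPKM and the sliding clamp PCNA (PAS_chr3_0233) at 108, 251 and 249 FPKM. Replicate 1 was the lowest of all 12 libraries for these 3 genes. In the cell cycle and cytokinesis list 11 of 58 members had a range over 1, or 19.0%, near the 16.4% of all transcripts. Replicate 1 was the lowest of the 3 cultures for 41, and a kinetochore protein of the Ndc80 complex (PAS_chr1-3_0242) had the largest range, at 18.9, 43.6 and 56.1 FPKM.

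Cytosolic ribosomal proteins shifted by a small amount but nearly without exception. Replicate 1 was the lowest of the 3 G14_37 cultures for 83 of 84 members. The median range was 0.67, close to the 0.65 of Parent_37 and above the 0.12 and 0.31 of Parent_30 and G14_30, and 8 members exceeded 1. Replicates 2 and 3 differed by a median of 0.13. Protein L9 of the large subunit (PAS_chr1-1_0382) was the most variable, at 330, 781 and 937 FPKM. Together the 84 genes took 11.3%, 14.6% and 17.8% of all FPKM in replicates 1, 2 and 3, against 21.2% to 25.4% in G14_30, 3.69% to 5.60% in Parent_37 and 20.3% to 22.4% in Parent_30. The 3 cultures therefore lay between both temperatures of the parent and did not overlap with any other group.

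Proteasome subunits were lowest in replicate 1 for 31 of 36 members, with a median range of 0.61 against 0.09 to 0.27, although only 2 exceeded 1. The subunit with the largest range, a regulatory non-ATPase subunit (PAS_chr1-4_0478), went against this order, at 165, 80.7 and 72.2 FPKM.

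Chaperones refold proteins damaged by heat. In the list of heat shock proteins and chaperones 8 of 49 members had a range over 1, a share of 16.3% that did not stand out from the 16.4% of all transcripts, and replicate 1 was the culture apart below for 7 of them. The median range of the list was 0.56, and replicates 2 and 3 differed by a median of 0.18, within the 0.21 found elsewhere. The Hsp70-family ATPase SSA1 (PAS_chr4_0552, chromosome 4, 1081350 to 1083287, plus strand) was at 217, 1215 and 1987 FPKM, against 3036 to 7693 in the other 9 libraries. All 3 cultures were thus below every other library, and replicate 1 was 7.36-fold below the mean of the other 2. A gene described as heat shock protein Hsp90 in the deposited table but listed as HSP104 by the study (PAS_chr1-4_0130) was at 811, 2116 and 2745 FPKM. A co-chaperone of Hsp90 (PAS_chr1-4_0043) was at 901, 2205 and 3238 FPKM. The endoplasmic reticulum chaperone KAR2 (PAS_chr2-1_0140) was at 332, 615 and 842 FPKM, against 1306 to 9942, and the Hsp90 co-chaperone STI1 (PAS_chr2-1_0518) at 337, 605 and 760 FPKM. For these 4 genes too replicate 1 was lowest, replicate 3 highest, and all 3 were below the other 9 libraries. The gene that the study lists as Hsp90, HSP82 (PAS_chr4_0627), was instead highest in replicate 1, at 1179, 857 and 1117 FPKM. Its range was 0.46 against 0.67 in G14_30. Over the list of 49, replicate 1 was the lowest of the 3 cultures for 33 members and the highest for 10. The whole list took 1.46%, 2.05% and 2.65% of all FPKM, against 2.83% to 13.5% in the other groups.

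The second pattern, between replicates 2 and 3, centred on glycolysis. The 14 members had a median range of 2.71, and 12 were over 1. Replicate 2 was above replicate 3 by more than 1 for 12 members, and for 9 members the order from high to low was replicate 2, 3, 1. Pyruvate kinase (PAS_chr2-1_0769, chromosome 2, 1465321 to 1466838, minus strand), the last enzyme of glycolysis, was at 211, 4080 and 997 FPKM, against 386 to 2756 elsewhere. Glyceraldehyde-3-phosphate dehydrogenase (PAS_chr2-1_0437) was at 2393, 19762 and 5013 FPKM, against 2934 to 12266. For both genes replicate 1 was the lowest and replicate 2 the highest of the 12 libraries.

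This list was also variable in G14_30, where its median range was 1.51 and 12 members exceeded 1, but not in Parent_37, at 0.28. The glycolytic genes took 0.89%, 5.87% and 1.66% of all FPKM in replicates 1, 2 and 3 of G14_37. In the same order of replicates the share was 3.66%, 3.14% and 2.56% in Parent_30 and 3.05%, 3.50% and 1.21% in G14_30, and it was 0.78% to 0.79% in Parent_37. Replicate 3 had the lowest share of Parent_30 and of G14_30 and was below replicate 2 in G14_37. With replicate 1 left out, glycolysis was still the list in which replicates 2 and 3 lay farthest apart, by a median of 1.85 against 1.43 for the most distant pair elsewhere.

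**Figure D4:**
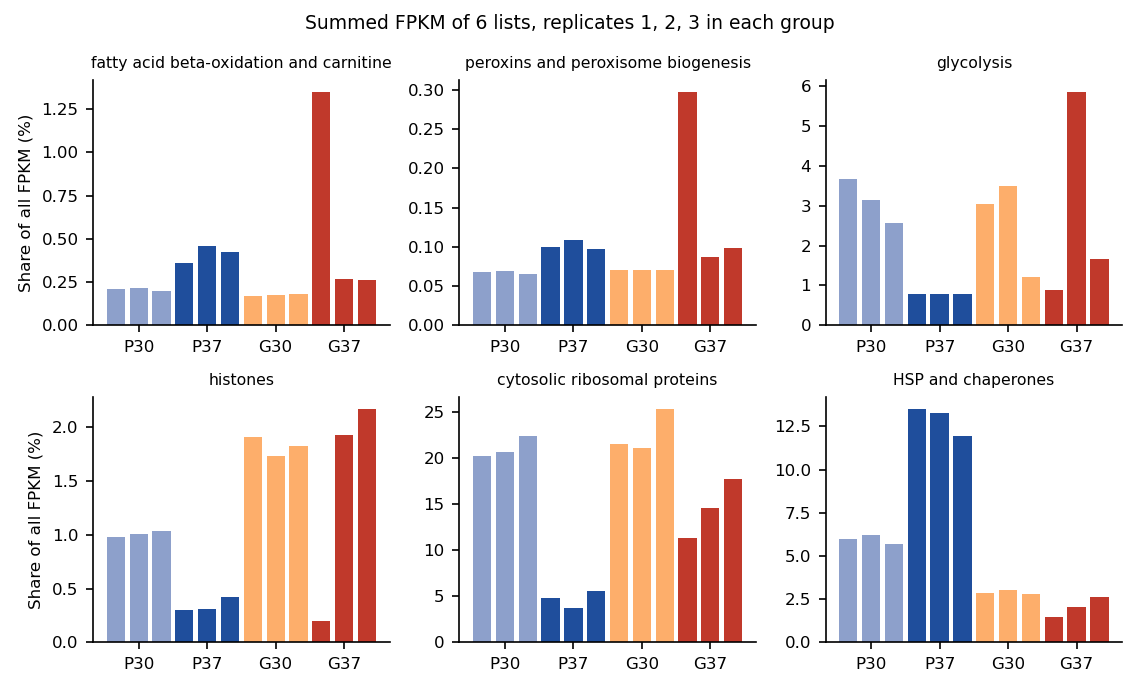
Share of all FPKM (vertical axis, percent) taken by 6 function lists in each of the 12 libraries, with 1 panel per list. Beta-oxidation and carnitine genes took 1.35% in replicate 1 of G14_37 against 0.27% and 0.26% in replicates 2 and 3, whereas glycolytic genes took 0.89%, 5.87% and 1.66%.

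Single genes of sugar uptake and fermentation were also highest in replicate 2, against the order of their lists. Replicate 1 was highest for 10 of 15 sugar and organic acid transporters and for 7 of 11 fermentation and C2 genes. Over all transcripts it was highest for 2103 of 5080. The major pyruvate decarboxylase (PAS_chr3_0188), which commits pyruvate to fermentation, was at 387, 7828 and 1882 FPKM, against 1345 to 8362 elsewhere. An alcohol dehydrogenase annotated as mitochondrial isozyme III (PAS_chr2-1_0472) was at 4444, 14327 and 2652 FPKM, and a high-affinity glucose transporter (PAS_chr1-4_0570) at 1082, 3356 and 1032 FPKM. The latter 2 genes differed as much in G14_30, with ranges of 2.90 and 2.16 against 2.43 and 1.70 in G14_37. Pyruvate decarboxylase also varied in G14_30, with replicate 3 lowest and a range of 2.04 against 4.34 in G14_37. A 2-deoxyglucose-6-phosphate phosphatase (PAS_chr2-1_0016) was at 11.0, 746 and 150 FPKM, against 42.6 to 2866, with a range of 5.96. It followed the order of pyruvate kinase.

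Uptake of nitrogen and amino acids varied along both patterns. Of the 42 members, 20 had a range over 1, the culture apart was replicate 1 for 7 and replicate 2 or 3 for 13, and replicate 2 was above replicate 3 by more than 1 for 13. A putative ammonia exporter (PAS_chr1-1_0378) was at 2009, 650 and 38.8 FPKM, against 25 to 211 elsewhere. An ammonium permease (PAS_chr1-4_0394) was at 4.76, 38.5 and 1.31 FPKM, the lysine permease (PAS_chr1-1_0341) at 46.1, 323 and 114 FPKM, and a transcriptional activator of nitrogen catabolite repressed genes (PAS_chr4_0626) at 43.5, 81.0 and 13.7 FPKM. The exporter was highest in replicate 1, whereas the permeases and the activator were highest in replicate 2. The pair of replicates 2 and 3 differed by a median of 0.46 in this list, against 0.30 for the most distant pair elsewhere.

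Other metabolic genes separated all 3 cultures. Inositol 1-phosphate synthase (PAS_chr2-2_0113), the first enzyme of inositol synthesis, was at 756, 140 and 8.28 FPKM, against 3.74 to 160 elsewhere, with a range of 6.35. A thiamine-pathway enzyme with hydroxymethylpyrimidine kinase activity (PAS_chr3_0842) was at 278, 38.4 and 12.2 FPKM, against 10.4 to 196. In both genes replicate 1 was highest, replicate 3 lowest and replicate 2 in between.

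Several genes of iron, heme and sterol metabolism were highest in replicate 2, although the median of replicate 2 minus replicate 3 was near 0 for the iron, copper and heme list (-0.08) and for the sterol and sphingolipid list (0.09, with the sign reversed when libraries were scaled to equal sums). A low-affinity Fe(II) transporter (PAS_chr4_0008) was at 38.7, 294 and 22.2 FPKM, against 20.9 to 143 elsewhere. Coproporphyrinogen III oxidase (PAS_chr3_0943), an oxygen-requiring enzyme of heme synthesis, was at 585, 1009 and 168 FPKM, and lanosterol 14-alpha-demethylase (PAS_chr3_0957), an enzyme of ergosterol synthesis, at 94.9, 328 and 121 FPKM. Squalene epoxidase (PAS_chr3_0124) was at 280, 436 and 142 FPKM. The oxidase, the demethylase and the epoxidase had ranges of 2.58, 1.78 and 1.61 in G14_37 and of 2.81, 1.71 and 2.03 in G14_30, so their spread was as large in both G14 groups. The ferrioxamine transporter (PAS_chr3_0662) went the other way, at 62.3, 37.0 and 189 FPKM. C-8 sterol isomerase (PAS_chr4_0198), also of ergosterol synthesis, had the largest range of the sterol list, at 99.9, 478 and 283 FPKM, with 0.31 in G14_30 against 2.25 here.

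**Figure D5:**
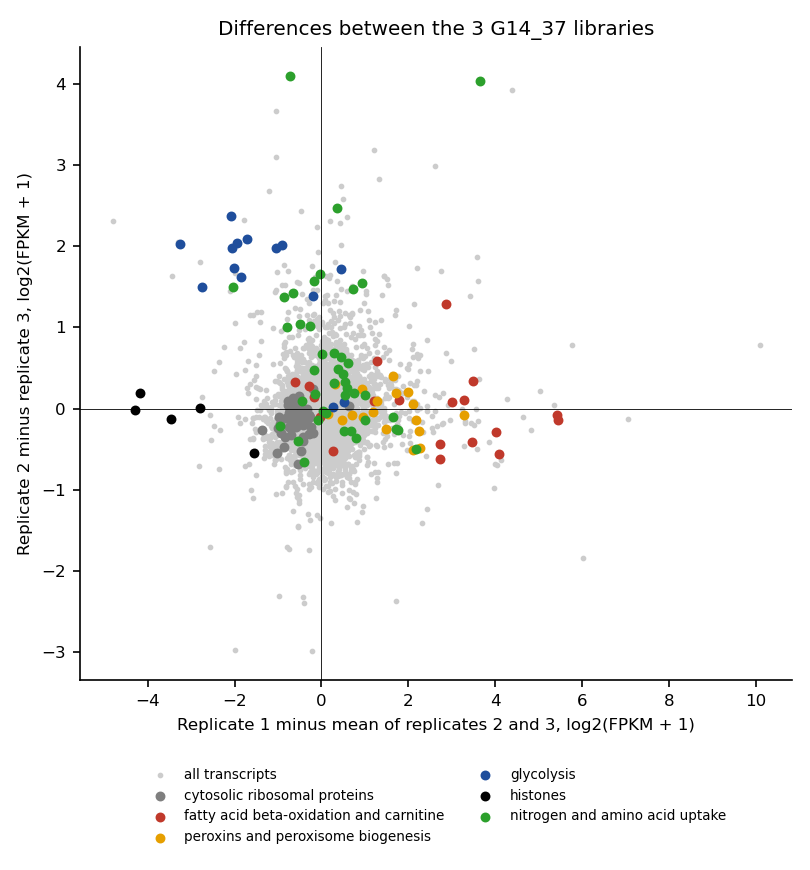
Each point is a transcript, at its log2 difference between replicate 1 and the mean of replicates 2 and 3 of G14_37 (horizontal axis) and between replicate 2 and replicate 3 (vertical axis), with 6 function lists coloured. Beta-oxidation and peroxin genes lie to the right with medians of 2.73 and 1.56, histones to the left at -3.46, and glycolytic genes to the upper left at -1.78 and 1.85.

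Among further lists, the mitochondrial ribosomal proteins separated replicate 3 from replicate 2, by a median of 0.57 against 0.25 for the most distant pair elsewhere. Replicate 1 was above the mean of the other 2 for 18 of the 20 members. Their most variable member (PAS_chr4_0388) went against this order, at 30.6, 58.4 and 80.2 FPKM. The antioxidant list of 24 members had a median range of 0.68 and 6 members over 1, against 2, 0 and 1 in Parent_30, Parent_37 and G14_30. A cytoplasmic thioredoxin (PAS_chr3_0670), which reduces disulfides, had the largest range and was at 2.57, 10.6 and 36.8 FPKM from 16, 72 and 247 fragments, against 36.7 to 123 FPKM elsewhere. Its range was 3.41, but it also exceeded 1 in Parent_30 (1.04) and G14_30 (1.72), with replicate 3 highest in both. The major exo-1,3-beta-glucanase of the cell wall (PAS_chr2-1_0454) was at 167, 1042 and 614 FPKM, and a high-affinity phosphate transporter (PAS_chr4_0337) at 233, 88.3 and 71.9 FPKM. An autophagy gene for a phosphoinositide binding protein (PAS_chr3_0931) was at 206, 319 and 101 FPKM.

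The functions that differed least between the cultures were tRNA charging, translation factors, splicing and mRNA decay, RNA polymerase I and III, and secretion. The ribosomal protein lists were not among them, at 0.67 (cytosolic) and 0.69 (mitochondrial). A small range here could still exceed that of the other groups. Secretion had 0.34 against 0.10, 0.21 and 0.14 in Parent_30, Parent_37 and G14_30, and tRNA charging had 0.24 against 0.08, 0.21 and 0.19. The median range was 0.24 for tRNA charging, 0.28 for translation factors, 0.29 for splicing and mRNA decay and 0.34 for secretion, and 0, 0, 0 and 4 members of these lists exceeded 1. Their most variable members were a cytosolic leucyl tRNA synthetase (PAS_chr4_0393) at 114, 178 and 125 FPKM, elongation factor EF-1 gamma (PAS_chr3_1071) at 222, 147 and 119 FPKM, a zinc cluster splicing protein (PAS_chr3_0582) at 73.3, 42.6 and 40.7 FPKM and a COPII vesicle protein (PAS_chr2-1_0484) at 76.4, 140 and 208 FPKM. Amino acid biosynthesis also had 0 members over 1, and its most variable gene, homoserine kinase (PAS_chr3_0899), was at 134, 245 and 198 FPKM. RNA polymerase I and III had 0 as well, with subunit A43 (PAS_chr3_0707) at 36.0, 25.2 and 47.0 FPKM, and ribosome biogenesis had 2 of 114, among them an exoribonuclease of rRNA processing (PAS_chr3_0581) at 79.3, 36.5 and 46.1 FPKM.

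The described genes with the smallest ranges were near identical in the 3 cultures. A histone deacetylase (PAS_chr1-4_0125) was at 113, 113 and 113 FPKM, a subunit of the anaphase-promoting complex (PAS_chr1-3_0148) at 25.8, 25.7 and 25.9, and a t-SNARE of secretory vesicle fusion (PAS_chr2-2_0132) at 117, 118 and 118. A bile pigment transporter (PAS_chr1-4_0562) was at 34.1, 33.8 and 33.9 FPKM and the clathrin adaptor gamma-adaptin (PAS_chr2-1_0537) at 60.9, 61.5 and 61.5. S-adenosylmethionine decarboxylase (PAS_chr2-1_0202), an enzyme of polyamine synthesis, had the lowest p among described genes less variable in G14_37. It was at 187, 194 and 197 FPKM, with a range of 0.08 against 0.62, 0.15 and 0.57, and a Benjamini-Hochberg adjusted p of 0.0463 in limma. This call was also lost under the alternatives that left 0. The next 4, a DEAD-box RNA helicase (PAS_chr2-1_0378), a WD repeat protein (PAS_FragB_0054), a tRNA methyltransferase (PAS_chr3_0632) and a vacuolar zinc transporter (PAS_chr3_0966), had adjusted p of 0.0503 to 0.0665 in the same limma test and did not pass it.

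The genes that the study followed as peroxisomal, antioxidant, heat shock, ubiquitin and transcription factor genes were examined for their spread. This list was chosen by the study on these same samples, so it is not independent of them. Of its 39 genes 13 had a range over 1 in G14_37, 33.3% against 16.4% of all transcripts, and the median range was 0.82 against 0.48. The peroxisomal genes had the largest median range (1.60, 6 of 9 over 1), followed by the antioxidant (0.97, 1 of 7), heat shock (0.82, 4 of 11), ubiquitin (0.53, 2 of 7) and transcription factor genes (0.41, 1 of 6). Catalase A is counted in both of the first 2 lists and was the 1 antioxidant gene over 1. Those not given above were the ubiquitin ligase PIB1 (PAS_chr1-1_0290) at 114, 35.8 and 39.7 FPKM, the conjugating enzyme UBC8 (PAS_chr3_0779), a negative regulator of gluconeogenesis, at 318, 176 and 102 FPKM, and the stress activator MSN4 (PAS_chr2-1_0723) at 441, 206 and 156 FPKM. The remaining gene, xanthine dehydrogenase in the study's list and a hypothetical protein in the deposited table (PAS_chr2-2_0112), was at 77.7, 52.8 and 35.1 FPKM. All 4 were highest in replicate 1.

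The variation in G14_37 was compared with that in the other groups gene by gene. Of the 835 transcripts, 95 also had a range over 1 in G14_30, which is 11.4% of the 835 and 87.2% of the 109 of G14_30. The overlap was 31 with Parent_30 (3.71% and 68.9%) and 25 with Parent_37 (2.99% and 52.1%). Of all 5080 transcripts, 16.4% exceeded 1 in G14_37, against 2.15% in G14_30, 0.886% in Parent_30 and 0.945% in Parent_37. Any of the other 3 groups had a range over 1 for 172 transcripts, of which 123 (71.5%) were among the 835. The other 712 exceeded 1 in G14_37 alone. With so few transcripts over 1 elsewhere, most of the 835 could not overlap. Across the 5080 transcripts, the difference of replicate 2 minus replicate 3 had a Pearson r of 0.66 and a Spearman rho of 0.52 with the mean of replicates 1 and 2 minus replicate 3 of G14_30. It had 0.56 and 0.52 with replicate 1 minus replicate 3 of Parent_30, but 0.01 and 0.07 with that of Parent_37. The deviation of replicate 1 had 0.26 and 0.23 with the difference of Parent_37 minus Parent_30. It was also set against the library most often apart in each other group. The values were 0.29 and 0.28 with the deviation of replicate 2 of Parent_37. They were lower with replicate 1 of Parent_30 (0.11 and 0.10) and with replicate 3 of G14_30 (0.04 and -0.05). These values are a description across genes, which are not independent replicates.

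Counting error was small beside these ranges. The 835 transcripts had a median of 2027 fragments per library, against 1695.7 for all transcripts, and only 15 of them averaged under 100. At the median depth, counting alone gives an SD of 0.035 on the log2 scale. This SD covers counting error only, and other technical differences between the libraries were not tested.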

How the data were processed

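RNA was measured in 12 libraries (NEBNext Ultra, Illumina NovaSeq, paired-end), 3 for each of 4 groups set by the sample labels. The authors mapped reads to a genome and gene models from PICHIAGENOME; the submitters' processing notes list HISAT2 2.0.5, featureCounts 1.5.0-p3 and CASAVA without their roles, and no source used here names the genome build. Coordinates are those of the table. The authors deposited FPKM values per gene and library, which already include a scaling between libraries, since median-of-ratios factors computed from them were equal. Whole fragment numbers could be recovered for 100% of values (tolerance 0.05), which gave the depths. Values were transformed as log2(FPKM + 1), a scale computed here from the deposited FPKM that understates differences of low genes. The minimum mean of 1 FPKM removed 0 transcripts.

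The range of each transcript within each group was computed in R 4.3.3 and Python 3.11.15 (numpy 2.4.6, pandas 2.3.3, matplotlib 3.10.9). Spread was tested with limma 3.58.1 on absolute deviations from group means, scaled for 3 libraries, G14_37 against the mean of the other 3 groups, with Benjamini-Hochberg adjustment over all transcripts at 0.05. No test was made between single libraries. On simulated libraries of equal spread, the unadjusted p of this test fell under 0.05 more often than nominal, so unadjusted counts are descriptions only, and adjusted values, which are computed from the same p, may be too small as well. The replicates are separate cultures by the methods.

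Function lists came from word patterns in the gene descriptions. The members and lists were chosen with earlier results of these data known, and the patterns were adjusted after the descriptions had been read. Named genes were the 12 described transcripts with the largest and the 5 with the smallest range in G14_37 (mean at least 10 FPKM), the largest of each list with at least 5 members, genes of the study's list with a range over 1, and the 5 with the lowest p in each direction. A further 27 were chosen after their values were seen, among them fructose-1,6-bisphosphatase, alcohol oxidase, the core histones other than H4, glyceraldehyde-3-phosphate dehydrogenase and PCNA. Alternatives changed the pseudocount, filter, scaling, replicate block, centre and libraries used.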

Additional observations from a re-analysis of the deposited data

How the results depend on the processing

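The count of transcripts more variable in G14_37 (1600 in limma with Benjamini-Hochberg adjustment, 2244 at an unadjusted p under 0.05) became 0 with a replicate block (1635 unadjusted), 0 with deviations from the group median (343), and 0 against Parent_30 (1477), Parent_37 (1130) or G14_30 (1198) alone. With the median as centre 1 of the 3 deviations is always 0, and the fits against 1 group use fewer samples. The count was 1179 to 2571 when any 1 of the 12 libraries was left out, 1179 without replicate 1 of G14_37, of which 606 were among the 1600. With 2 libraries left in a group both deviations are equal by construction.

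With the replicate block, the count of ranges over 1 was 419 in place of 835, the median range 0.36 in place of 0.48 and the share with replicate 1 apart 78.8% in place of 69.1%, while 34 lists were still the more variable. The labels name no shared batch or day, so the numbers were not taken to pair the cultures. The 18 correlations of same-numbered deviations ran from -0.22 to 0.67. For replicate 3 they were 0.67 (Parent_30 and G14_30), 0.47 (Parent_30 and G14_37) and 0.41 (G14_30 and G14_37). Replicate 1 had 0.61 between Parent_30 and G14_30, and replicate 2 had 0.45 between G14_30 and G14_37. Those with Parent_37 ran from -0.22 to 0.17. Whether same-numbered cultures shared a batch was not tested. Leaving out a G14_37 library gave 198 to 627 ranges over 1 and a median range of 0.20 to 0.34, where a range of 2 libraries is smaller by construction. The number of lists more variable than in each other group was 8 to 35, with 8 without replicate 1 of G14_37, 29 without replicate 2 and 31 without replicate 3. The share with replicate 1 apart needs 3 libraries and could not be computed then.

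Scaling to equal sums gave a median range of 0.54, 1742 transcripts more variable (1341 of them among the 1600), and turned the sign of replicate 2 minus replicate 3 in 12 lists, beta-oxidation among them, and of replicate 1 against the others in 1, phosphate. A pseudocount of 0.1 or a minimum of 10 FPKM changed each count by less than 1.5 times, and no filter and median-of-ratios scaling gave the same counts since no transcript was under the minimum and the factors were equal. With each list counted once for each alternative compared, its median was marked as moved in 142 cases and as the same in 191. For the ranges of named genes, counted in this way, the numbers were 113 and 697. Depth limits few of these results, since only 15 of the 835 transcripts averaged under 100 fragments, but 3 cultures per group do not show how often such a culture occurs.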

Other observations

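The 1969 transcripts annotated as hypothetical or of unknown function had a median range of 0.50 in G14_37, and 342 (17.4%) exceeded 1, against 16.4% of all transcripts. Of the 40 transcripts outside the annotation 8 (20%) exceeded 1, with a median range of 0.52. One hypothetical gene, PAS_chr3_0836, chosen after its values were seen, was at 543, 2.91 and 3.29 FPKM in replicates 1, 2 and 3, against 2.16 to 27.7 FPKM in the other 9 libraries, with a range of 7.12 and the high value in the same culture as formate dehydrogenase.

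The ranges over 1 were spread along the genome, with 15.8%, 15.5%, 17.4% and 17.6% of transcripts on chromosomes 1, 2, 3 and 4. By mean FPKM over all libraries they were 18.5%, 12%, 13.7% and 21.5% from the lowest to the highest of 4 equal bins of 1270 transcripts. Across the 5080 transcripts the Spearman rho of the G14_37 range was 0.09 with mean FPKM and -0.12 with gene length, a description across genes that share the same libraries.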
